A study of Homo sapiens with 118 samples.

Results

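FBXO32, ADAMTS9, SLC16A12 and KLRC2 were 4 of 19470 gene symbols in the count table, each represented by 1 of 22068 probe rows (features). They were selected on trichostatin A, the chemical with the fewest concentration-dependent calls: the trend of each across its 5 concentrations had passed an adjusted p of 0.05 and a fold change of 1.5. Their values in trichostatin A are therefore a description, and the tests below concern the 7 other chemicals. FBXO32 and ADAMTS9 were lower, and SLC16A12 and KLRC2 higher, at the top concentration of trichostatin A.

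Histone deacetylases remove acetyl groups from lysines of histones and of other proteins, and their inhibitors leave chromatin more acetylated. FBXO32 (atrogin-1) is the substrate-binding F-box subunit of an SCF ubiquitin ligase, is best known from muscle atrophy, and is a target of FOXO transcription factors. ADAMTS9 is a secreted metalloprotease that cleaves proteoglycans such as versican and aggrecan. SLC16A12 belongs to the monocarboxylate transporter family and carries creatine, and KLRC2 (NKG2C) is an activating receptor of natural killer cells that pairs with CD94.

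The libraries were made from HepaRG, a human hepatic cell line differentiated into hepatocyte-like and biliary-like cells, after 72 h with 1 of 8 histone deacetylase inhibitors. Expression was read by TempO-Seq, in which pairs of probes ligate on their target RNA and are counted by sequencing. Each chemical had 5 concentration levels, C1 (lowest) to C5. There were 118 libraries in 40 groups, with 1 library from each of 3 HepaRG batches in 38 of them and no batch 3 library in panobinostat C3 and trichostatin A C4. C1 to C5 spanned 0.018811 to 1.5237 µM for trichostatin A, 0.001468 to 0.084 µM for panobinostat, 0.041722 to 0.86 µM for apicidin, 0.177222 to 3.9 µM for mocetinostat, 0.404778 to 23.5 µM for vorinostat, 1.143333 to 44 µM for tacedinaline and 4.94 to 94.5 µM for scriptaid. For valproic acid the dose labels ran from 100.478 to 3038, but the sources differ in its unit, which is left unnamed here. Trichostatin A, vorinostat, panobinostat and scriptaid are hydroxamic acids, mocetinostat and tacedinaline are benzamides, apicidin is a cyclic tetrapeptide and valproic acid is a branched fatty acid. Doses were not matched, so values of different chemicals stand side by side. Library titles of scriptaid, tacedinaline and vorinostat carried the letter E and those of the other 5 chemicals the letter H. The titles do not explain these letters, and whether they stand for a plate is unknown here. Solvent controls were not used here, and C1 of the same chemical was the reference. A change that had run its course by C1 could therefore not be measured.

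Expression is given in CPM, read counts per library scaled to a common library size, as mean ± SD over 3 libraries, or 2 in the groups without batch 3. Levels of different genes are not compared, since each probe has its own efficiency. Log2 changes, standard errors (SE) and adjusted p-values are from edgeR's quasi-likelihood test within 1 chemical, with Benjamini-Hochberg adjustment over all features tested. The trend is the slope against log2 concentration, expressed as the log2 change it gives over the whole range C1 to C5. A change was called at an adjusted p under 0.05 and a fold of at least 1.5. Library totals lay between 1061359 and 5250260 counts, with a median of 3702007, and each of the 4 genes had at least 10 counts in every library and passed the filter on low counts in all 8 chemicals. In lysates of whole cultures, fewer cells of a type and less RNA per cell cannot be told apart.

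Libraries of a group correlated with a median Pearson's r of 0.957 across features, and 3 had low values beside the other libraries of their groups. They were scriptaid C4 of batch 3 (mean r of 0.851 with its group), mocetinostat C2 of batch 3 (0.891) and trichostatin A C1 of batch 3 (0.905). The last belongs to the reference group of trichostatin A. Its summed level of 9 hepatocyte marker genes was 12915 CPM, against 49282 and 53662 CPM in batches 1 and 2. Fitted trends and C5 changes of trichostatin A are given with and without it. In the other 7 chemicals the summed hepatocyte markers at C1 were between 35352 and 63410.4 CPM per library, so the labelled liver identity showed in them.

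The reference sequence before a start site of SLC16A12 is shown because this gene was called up at C3 in each of the 7 chemicals other than trichostatin A, as given further on. That start site lies inside the annotated span of the gene, chr10:89430299-89556704, and is not its outermost one. The stretch is chr10:89535595-89535844, minus strand, from RefSeq on GRCh38.p14, printed 5′ to 3′ with each GC box (GGGCGG or its complement CCGCCC) in capitals. The other 3 genes had no entry in the promoter table.
SLC16A12: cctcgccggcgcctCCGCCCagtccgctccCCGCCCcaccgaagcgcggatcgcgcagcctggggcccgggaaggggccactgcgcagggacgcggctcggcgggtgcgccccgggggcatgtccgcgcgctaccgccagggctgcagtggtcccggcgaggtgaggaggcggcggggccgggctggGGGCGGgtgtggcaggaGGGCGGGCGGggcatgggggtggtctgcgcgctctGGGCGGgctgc
These 250 bases held 6 GC boxes on either strand, some of them overlapping, and 81.2% G or C. Of 35116 promoter entries of the same length, 42.6% held at least 1 GC box and 2.2% held at least as many as this stretch. The median G or C content was 58.0%. A match is a description of letters and no evidence of a bound factor, and no promoter was measured in these libraries.

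FBXO32 fell in steps across trichostatin A, with 84.8, 105 and 213 CPM at C1 in batches 1, 2 and 3 and 38.5, 27.9 and 30.5 CPM at C5. The groups in between had 82.5, 79.6 and 50.9 CPM at C2, 59.6, 68.1 and 70.8 CPM at C3, and 43.4 and 53.8 CPM at C4 in batches 1 and 2. All libraries at C5 lay below all at C1 to C4, and the batch 3 library at C1 was the highest of all 118 libraries. ADAMTS9 had 69.0, 49.6 and 144 CPM at C1, 48.5, 55.5 and 55.1 CPM at C2, 45.3, 40.2 and 40.3 CPM at C3, 45.0 and 45.3 CPM at C4 and 32.6, 24.2 and 23.0 CPM at C5. Here too the C5 libraries were below all others and the batch 3 library at C1 was far above its group.

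SLC16A12 stayed near its starting level up to C3 and was higher only at the top of the range. Its libraries had 16.5, 14.2 and 11.6 CPM at C1, 10.5, 17.9 and 14.5 CPM at C2, 19.4, 20.8 and 12.8 CPM at C3, 29.3 and 18.9 CPM at C4 and 55.3, 35.5 and 39.0 CPM at C5, and the C5 libraries did not overlap with any other group. KLRC2 had 71.2, 90.6 and 91.4 CPM at C1, 96.3, 77.9 and 78.5 CPM at C2, 106, 103 and 109 CPM at C3, 104 and 121 CPM at C4 and 206, 184 and 118 CPM at C5. For this receptor the batch 3 library at C5 lay just below the highest library at C4, and batches 1 and 2 were well above it.

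**Figure D1:**
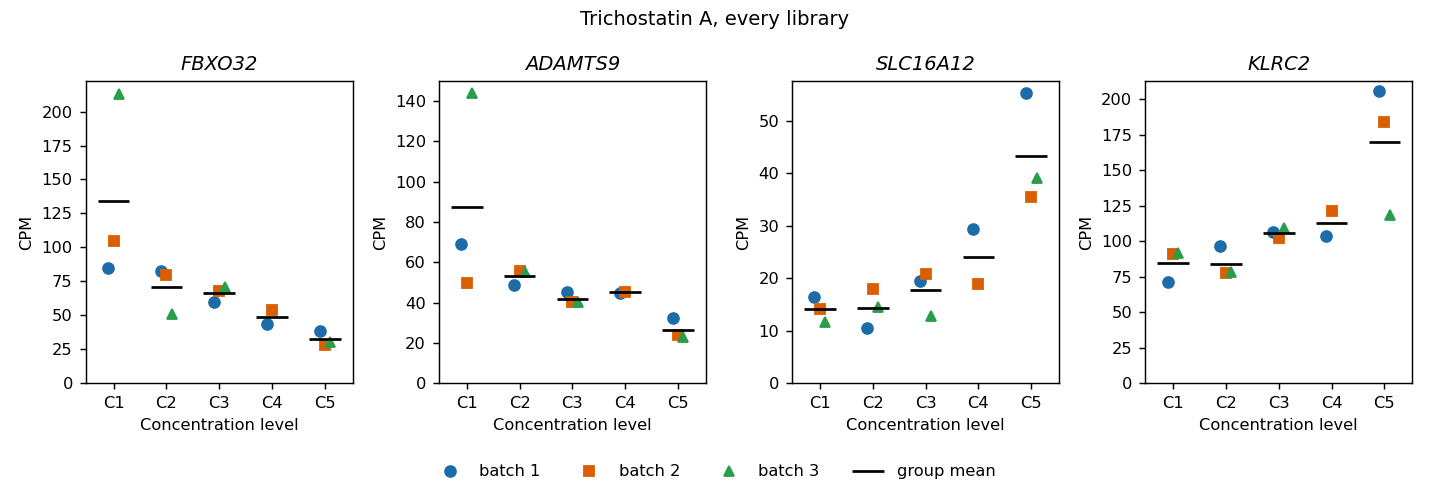
Level of the 4 genes in CPM, scaled read counts, in every trichostatin A library by concentration level C1 to C5, with a symbol for each HepaRG batch and a bar at the group mean. At C5, FBXO32 lay between 27.9 and 38.5 CPM, below every library of C1 to C4, and the batch 3 library at C1 stood apart for FBXO32 and ADAMTS9.

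The fitted trend in trichostatin A was -1.88 ± 0.27 (log2 ± SE) for FBXO32, 1.66 ± 0.27 for SLC16A12, -1.5 ± 0.27 for ADAMTS9 and 1.02 ± 0.18 for KLRC2. The trend test had called 0.0462% of 12993 features down and 0.0154% up, 8 features in all. Adjusted p was 0.0082, 0.0229, 0.0399 and 0.0399 for FBXO32, SLC16A12, KLRC2 and ADAMTS9, and the threshold fell between CCDC80 (0.0456, trend -1.11) inside and CYP4F22 (0.0532, trend -0.88) outside. DCN, SAA1 and FLNA were the other called genes. These values chose the genes and support nothing further.

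Without the C1 library of batch 3, the log2 trend was -1.47 for FBXO32, -1.05 for ADAMTS9, 1.66 for SLC16A12 and 1.1 for KLRC2. All 4 genes still passed the selection, as 4 of 80 features. With the HepaRG batch as a block, 2 of the 4 passed: FBXO32 (adjusted p = 0.027) and SLC16A12 (0.0449), while KLRC2 (0.0991) and ADAMTS9 (0.115) did not. Without replicate 1 or without replicate 2, 0 of the 4 passed, and without replicate 3, 3 of the 4 did. The selection thus depended on the model and on single batches. The summed hepatocyte markers of trichostatin A at C5 (35755 to 45417 CPM) lay below the C1 libraries of batches 1 and 2 and above that of batch 3.

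FBXO32, the F-box subunit, was lower at C5 than at C1 in all 7 other chemicals. In mocetinostat the group means from C1 to C5 were 108 ± 32.2, 31.6 ± 20.7, 19.8 ± 13.3, 16.2 ± 6.72 and 7.73 ± 2.42 CPM, the steepest fall of the 8 chemicals, and all 3 libraries at C2 were already below those at C1. Tacedinaline, the other benzamide, kept its level at C2 and then fell, with 73.5 ± 11.6, 73.8 ± 14.5, 50.0 ± 3.03, 19.0 ± 6.42 and 13.0 ± 6.52 CPM. Apicidin gave 81.8 ± 22.9, 54.8 ± 16.9, 38.5 ± 5.77, 20.8 ± 9.63 and 25.3 ± 3.62 CPM, with the lowest mean at C4. The means of these 3 chemicals were lower at each higher level, except at C2 of tacedinaline and C5 of apicidin.

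Valproic acid also had its lowest mean at C4, with 69.0 ± 6.24, 60.0 ± 15.3, 44.1 ± 5.43, 17.7 ± 3.09 and 30.5 ± 6.74 CPM from C1 to C5. Panobinostat held its level up to C3, at 60.7 ± 4.27, 53.6 ± 19.7, 64.2 ± 2.59, 36.6 ± 1.92 and 29.3 ± 2.58 CPM. Both were below every C1 library at C4 and C5. Vorinostat gave 53.7 ± 7.20, 51.4 ± 13.4, 32.3 ± 8.25, 27.0 ± 15.5 and 20.6 ± 1.58 CPM and scriptaid 46.2 ± 6.68, 41.0 ± 6.37, 36.9 ± 16.6, 24.5 ± 15.1 and 18.9 ± 5.05 CPM, the lowest starting levels of this gene. In both the libraries of C5 were all below those of C1.

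FBXO32 was called down at C5 against C1 in 7 of 7 chemicals, by log2 changes of -1.68 (adjusted p = 0.000352) in apicidin, -3.71 (adjusted p = 0.000136) in mocetinostat, -1.06 (adjusted p = 0.00351) in panobinostat, -1.21 (adjusted p = 0.0375) in scriptaid, -2.44 (adjusted p = 3.26e-09) in tacedinaline, -1.16 (adjusted p = 0.00132) in valproic acid and -1.26 (adjusted p = 0.00202) in vorinostat. Each of the 3 batches showed the direction in each chemical. Among all features tested, C5 calls downward made up 15.0% in apicidin, 15.7% in mocetinostat, 9.46% in panobinostat, 17.0% in scriptaid, 20.1% in tacedinaline, 6.22% in valproic acid and 24.9% in vorinostat. By trend FBXO32 was called down in 6 of 7 chemicals, against 17.2% in apicidin, 17.7% in mocetinostat, 9.35% in panobinostat, 6.18% in scriptaid, 21.5% in tacedinaline, 7.73% in valproic acid and 23.0% in vorinostat of all features. Scriptaid was the exception, with a trend of -1.08 ± 0.39 (adjusted p = 0.0788). With the batch as a block its adjusted p was 0.0455, and without its C4 library of batch 3 it was 0.0299, so both settings would call 7 of 7. Leaving out that library also raised the downward trend calls of scriptaid over all features from 790 to 1445.

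The size of the FBXO32 change at C5 differed among the 7 chemicals (edgeR F test of all chemicals at once, adjusted p = 0.000158). That test called 21.4% of 15632 features, and the doses behind it were not matched. At C3 the log2 change was -1.08 (adjusted p = 0.0184) in apicidin and -2.42 (adjusted p = 0.00677) in mocetinostat, against 0.06 (adjusted p = 0.984) in panobinostat. With RLE scaling, downward calls at C3 were 1106 of 12706 features in apicidin and 702 of 13065 in mocetinostat. In trichostatin A the C5 against C1 log2 change was -2.04 ± 0.30, or -1.54 without the C1 library of batch 3. FBXO32 was selected on its fall in trichostatin A, so these sizes were not compared with those of the other chemicals. At C5 the highest mean was that of trichostatin A, 32.3 ± 5.51 CPM, followed by valproic acid, panobinostat, apicidin, vorinostat, scriptaid, tacedinaline and mocetinostat. All 7 pairs of neighbours in that order had overlapping libraries.

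The summed hepatocyte markers fell with concentration beside FBXO32 in the 7 chemicals, the group range being 49795 to 63410.4 CPM at C1 and 6776 to 8519 CPM at C5 in mocetinostat. In panobinostat it was 40524 to 48889 CPM at C1 and 21439.6 to 28398 CPM at C5. Of 77 tests of 11 marker features by trend, 73 were called down and 0 up. Genes of biliary cells, the other cell type of this line, were called up in 11 of 28 trend tests and down in 0. SPP1 and SOX9 gave 5 of these calls each and a KRT19 feature 1. Another KRT19 feature, at a mean of 40.6 CPM, was not called, and EPCAM was at 0 in 113 of 118 libraries. The part of either cell type in the FBXO32 change was not tested.

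**Figure D2:**
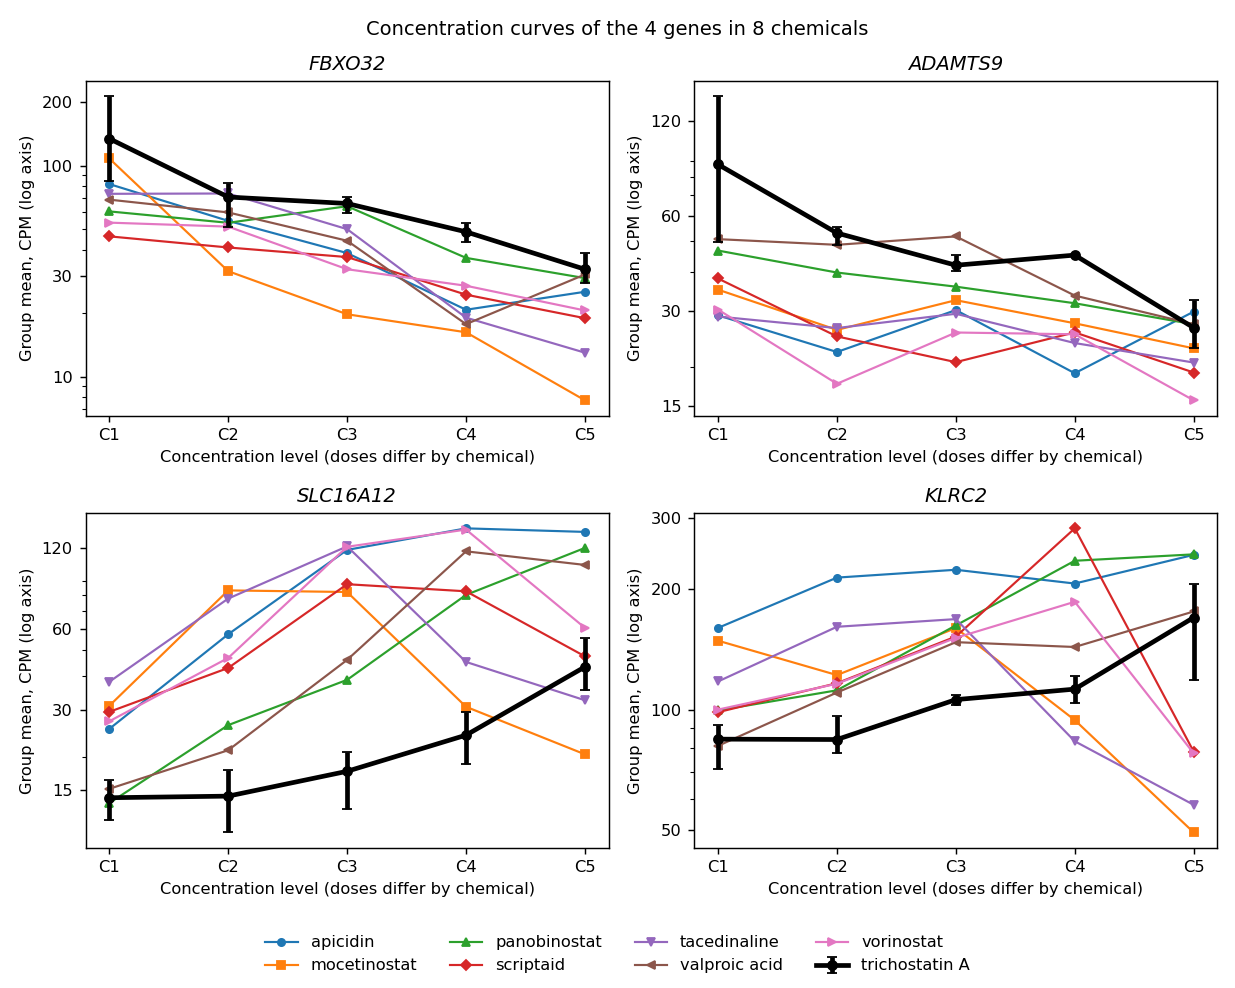
Group means of the 4 genes in CPM (log axis) by concentration level in the 8 chemicals, with trichostatin A in black and bars from its lowest to its highest library. FBXO32 was below its C1 mean at C5 in all 8 chemicals, while SLC16A12 and KLRC2 turned down after C3 or C4 in mocetinostat, tacedinaline, scriptaid and vorinostat.

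ADAMTS9, the proteoglycan-cleaving protease, was called in fewer of the 7 other chemicals than FBXO32. Panobinostat took it down step by step, with means of 46.7 ± 8.27, 39.8 ± 5.92, 35.9 ± 2.97, 31.8 ± 4.89 and 27.3 ± 4.14 CPM from C1 to C5. In valproic acid it held to C3 and fell after it, at 50.7 ± 0.981, 48.7 ± 10.1, 51.7 ± 11.2, 33.6 ± 10.7 and 27.3 ± 4.84 CPM. These were the 2 chemicals in which the trend was called, at -0.75 ± 0.19 (adjusted p = 0.00672) in panobinostat and -0.75 ± 0.23 (adjusted p = 0.0266) in valproic acid. All C5 libraries of both lay below all C1 libraries, and the fall was present in 3 of 3 batches.

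Scriptaid gave 38.1 ± 11.4, 24.9 ± 3.86, 20.7 ± 6.00, 25.7 ± 5.43 and 19.2 ± 5.08 CPM, and its C5 change was called at -0.93 ± 0.34 (adjusted p = 0.0471), although not with the batch as a block (adjusted p = 0.0579). In vorinostat the levels were 30.3 ± 6.63, 17.7 ± 4.24, 25.7 ± 14.0, 25.3 ± 10.7 and 15.7 ± 3.28 CPM, with a C5 change of -0.86 ± 0.38 (adjusted p = 0.0592), which the block moved to 0.0446. These 2 chemicals thus changed sides with the model. Mocetinostat had 35.1 ± 3.06, 26.2 ± 3.20, 32.5 ± 6.64, 27.5 ± 4.07 and 22.9 ± 7.05 CPM and tacedinaline 28.8 ± 6.30, 26.5 ± 3.66, 29.4 ± 12.3, 23.8 ± 5.71 and 20.6 ± 5.35 CPM, with C5 changes of -0.54 (adjusted p = 0.162) and -0.43 (adjusted p = 0.274). Apicidin had 29.1 ± 4.33, 22.3 ± 8.28, 30.2 ± 14.9, 19.1 ± 4.04 and 29.9 ± 14.0 CPM and a C5 change of 0.05 ± 0.38 (adjusted p = 0.935), with batch 2 higher and batches 1 and 3 lower at C5.

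ADAMTS9 was thus called down by trend in 2 of 7 chemicals and at C5 in 3 of 7 (panobinostat, scriptaid and valproic acid), beside the same backgrounds as FBXO32. Without replicate 1, 2 or 3 the trend count was 0, 1 and 1, and the C5 count 0, 0 and 2. Without the scriptaid C4 library of batch 3 the trend count was 3. Those backgrounds were 9.46%, 17.0% and 6.22% at C5 in these 3. All 7 trend values were below 0, but that of apicidin was -0.02. No difference of its C5 change among the 7 chemicals was detected (edgeR F test, adjusted p = 0.492), which does not show that the changes were alike. Trichostatin A had a C5 change of -1.70 ± 0.30, or -1.15 without the C1 library of batch 3. The largest of the other chemicals was -0.93 in scriptaid. The gene was selected on its fall in trichostatin A, so these sizes were not compared. The C1 mean of trichostatin A, 87.5 ± 49.8 CPM, or 59.3 ± 13.7 CPM without batch 3, entered that selection. It was the highest of the 8 chemicals, followed by valproic acid and panobinostat, and all neighbours in the order overlapped at C1 and at C5.

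Stromal marker genes, which mark the connective tissue cells that make much of the matrix ADAMTS9 acts on, were called down in 26 of 51 trend tests and up in 6. The 6 calls up were all of COL1A1. Features of DCN were called down in 4, 5 and 2 of 7 chemicals, and LUM, at a mean of 81.8 CPM, in 1 of 7. The summed level of all stromal markers per library was 190.0 to 231 CPM at C1 and 124 to 196 CPM at C5 in panobinostat. In valproic acid it was 186 to 236 CPM at C1 and 184 to 206 CPM at C5, and in trichostatin A 204 to 320.4 CPM at C1 and 137 to 179 CPM at C5. In apicidin, where ADAMTS9 was not called, the sum was 156 to 194 CPM at C1 and 77.9 to 90.2 CPM at C5. The part of the stromal markers in the ADAMTS9 values was not tested.

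SLC16A12, the creatine transporter, was higher at C3 than at C1 in every one of the 7 other chemicals. Apicidin raised it from 25.2, 24.2 and 26.9 CPM at C1 to 118, 107 and 128 CPM at C3, and vorinostat from 27.9, 26.4 and 27.0 to 105, 159 and 99.0 CPM. In panobinostat the libraries had 15.8, 12.0 and 12.6 CPM at C1 and 37.0 and 40.4 CPM at C3, where only batches 1 and 2 were present. No C3 library of these chemicals overlapped with C1.

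The C3 call was made in 7 of 7 chemicals, with log2 changes of 2.22 (adjusted p = 2.76e-07) in apicidin, 1.43 (adjusted p = 0.00225) in mocetinostat, 1.5 (adjusted p = 0.0288) in panobinostat, 1.59 (adjusted p = 0.0135) in scriptaid, 1.66 (adjusted p = 7.36e-08) in tacedinaline, 1.59 (adjusted p = 4.91e-05) in valproic acid and 2.2 (adjusted p = 4.13e-08) in vorinostat. Upward calls at C3 made up 6.94% in apicidin, 6.44% in mocetinostat, 0.00763% in panobinostat, 0.461% in scriptaid, 5.44% in tacedinaline, 0.293% in valproic acid and 3.18% in vorinostat of all features. In panobinostat that share was a single feature, SLC16A12 itself, among 13104 tested. With replicate 3 left out, 0 features were called up there, so this call was lost. The call was not kept without replicate 1 or without replicate 2 either, when C3 held 1 library. Every batch showed the rise in each chemical, but without replicate 2 the call was made in 4 of 7, and without replicate 1 or 3 in 6 of 7. At the lowest step, C2, the log2 change was 1.5 (adjusted p = 0.0313) in mocetinostat, 1.15 (adjusted p = 0.0327) in apicidin and 1.00 (adjusted p = 0.0132) in tacedinaline. With RLE scaling, upward calls at C2 were 18 of 13065 features in mocetinostat, 9 of 12706 in apicidin and 35 of 12461 in tacedinaline. In apicidin 0 features were called up without replicate 2 or 3, and in mocetinostat 0 without replicate 1 or 2, so those calls were lost. Without the mocetinostat C2 library of batch 3, 1907 features were called up there. Trichostatin A was at 17.7 ± 4.29 CPM at C3 and reached 43.3 ± 10.6 CPM at C5.

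Above C3 the chemicals parted. Panobinostat went on rising, with means of 13.5 ± 2.07, 26.3 ± 5.61, 38.7 ± 2.42, 80.2 ± 7.50 and 119.9 ± 1.79 CPM from C1 to C5. Valproic acid had 15.2 ± 0.355, 21.2 ± 0.687, 45.9 ± 6.68, 116 ± 6.67 and 104 ± 7.84 CPM and apicidin 25.4 ± 1.40, 57.2 ± 10.4, 118 ± 10.7, 142 ± 37.5 and 138 ± 9.77 CPM, both with the highest mean at C4 and C5 libraries above all of C1. Vorinostat reached its highest mean at C4, with 27.1 ± 0.751, 46.7 ± 2.99, 121 ± 33.0, 140.4 ± 12.5 and 60.4 ± 22.3 CPM. Scriptaid peaked at C3, with 29.4 ± 4.88, 42.9 ± 8.20, 87.9 ± 18.02, 82.7 ± 5.33 and 47.3 ± 22.2 CPM, and its C5 libraries spread from 28.1 to 71.6 CPM, overlapping with C1. Both benzamides came back to their C1 libraries or below: mocetinostat gave 31.0 ± 5.15, 83.3 ± 19.5, 82.2 ± 19.3, 30.7 ± 6.03 and 20.4 ± 0.988 CPM and tacedinaline 38.1 ± 7.55, 77.7 ± 9.51, 122 ± 13.0, 45.1 ± 9.31 and 32.5 ± 3.77 CPM. In mocetinostat all 3 libraries at C5 were below all at C1, a difference that did not pass the test.

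At C5 against C1 the rise was called in 4 of 7 chemicals, at 3.13 ± 0.22 (adjusted p = 3.33e-09) in panobinostat, 2.77 ± 0.19 (adjusted p = 1.29e-09) in valproic acid, 2.45 ± 0.21 (adjusted p = 2.66e-08) in apicidin and 1.24 ± 0.24 (adjusted p = 4.47e-05) in vorinostat. The values in the other 3 were 0.76 (adjusted p = 0.0764) in scriptaid, -0.18 (adjusted p = 0.538) in tacedinaline and -0.51 (adjusted p = 0.174) in mocetinostat. Upward calls at C5 made up 13.8% in apicidin, 14.8% in mocetinostat, 6.77% in panobinostat, 12.8% in scriptaid, 18.7% in tacedinaline, 4.84% in valproic acid and 22.7% in vorinostat of all features. By trend SLC16A12 was called up in 5 of 7, scriptaid included, against 17.2% in apicidin, 17.9% in mocetinostat, 8.06% in panobinostat, 6.83% in scriptaid, 21.8% in tacedinaline, 7.16% in valproic acid and 24.4% in vorinostat of all features. A straight line describes a curve that rises and falls poorly, and in mocetinostat the trend was -0.64 ± 0.69 (adjusted p = 0.492) although C3 was called up.

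The turn was therefore measured as C5 against C3, a contrast added after the curves had been seen. SLC16A12 was called down in 3 of 7 chemicals, at -1.95 ± 0.28 (adjusted p = 0.000464) in mocetinostat, -1.84 ± 0.21 (adjusted p = 6.17e-09) in tacedinaline and -0.95 ± 0.22 (adjusted p = 0.00082) in vorinostat. Scriptaid was at -0.84 ± 0.31 (adjusted p = 0.0545), and with the batch as a block at an adjusted p of 0.0414. Without replicate 2, 1 of 7 chemicals was called down. Panobinostat and valproic acid went the other way, at 1.63 (adjusted p = 7e-05) and 1.19 (adjusted p = 0.000164), and apicidin was at 0.23 (adjusted p = 0.654). With RLE scaling, upward calls from C3 to C5 were 335 of 13104 features in panobinostat and 69 of 12982 in valproic acid. Downward calls from C3 to C5 made up 1.77% in apicidin, 5.53% in mocetinostat, 5.52% in panobinostat, 15.0% in scriptaid, 13.2% in tacedinaline, 1.84% in valproic acid and 21.6% in vorinostat of all features. Library totals moved with concentration in some of these chemicals, being 1785295 to 4134455 counts at C1, 1420280 to 1678473 at C3 and 1061359 to 1879287 at C5 in vorinostat. In mocetinostat they were 4023177 to 5220707, 3601315 to 4668066 and 3045318 to 3704165 counts. The part of depth in the turn was not tested. Every chemical with the title letter E (scriptaid, tacedinaline and vorinostat) had a lower mean at C5 than at C3. Of those with the letter H, only mocetinostat did. Letter and chemical cannot be told apart here.

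**Figure D3:**
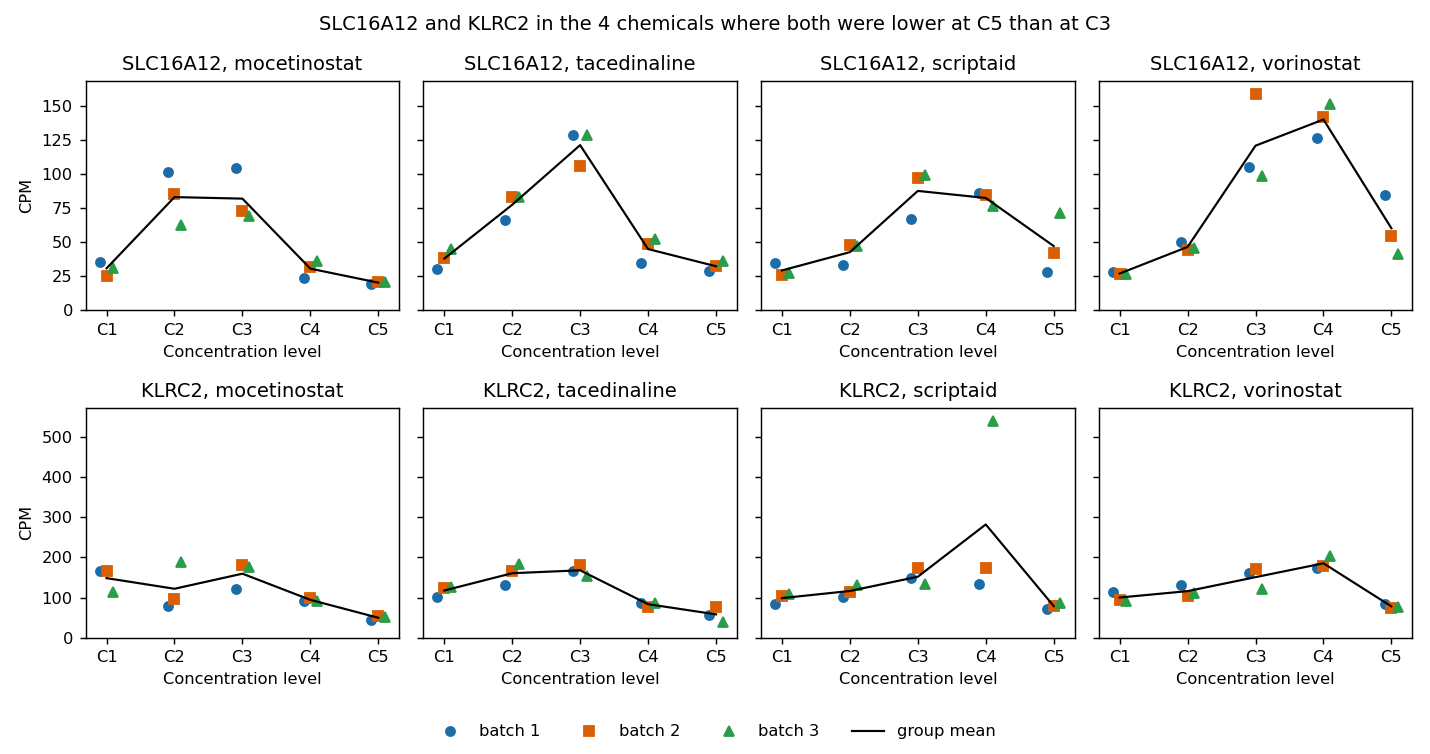
CPM of SLC16A12 (top) and KLRC2 (bottom) in every library of mocetinostat, tacedinaline, scriptaid and vorinostat by concentration level, with a symbol for each HepaRG batch and a line through the group means. SLC16A12 rose to 122 CPM at C3 and fell to 32.5 CPM at C5 in tacedinaline, and 1 scriptaid C4 library of batch 3 set the high KLRC2 mean there.

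The C5 change of SLC16A12 differed among the 7 chemicals (edgeR F test, adjusted p = 5.03e-21). The order of its C5 means was apicidin, panobinostat, valproic acid, vorinostat, scriptaid, trichostatin A, tacedinaline and mocetinostat. Neighbours did not overlap between apicidin and panobinostat, panobinostat and valproic acid, valproic acid and vorinostat, or tacedinaline and mocetinostat, and the other 3 neighbouring pairs did overlap. In trichostatin A the C5 against C1 log2 change was 1.63 ± 0.30, or 1.5 without the C1 library of batch 3, below the 3.13 of panobinostat, another hydroxamic acid, and above the 1.24 of vorinostat. Those doses differ, so no comparison between the compounds was made.

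KLRC2, the NKG2C receptor gene, was measured in all libraries of this liver line, with 39.9 CPM in the lowest, 125 CPM in the median and 541 CPM in the highest library. By trend it rose in 2 chemicals. Panobinostat went through 99.5 ± 10.1, 112 ± 30.9, 162 ± 33.4, 235 ± 37.2 and 243 ± 10.4 CPM from C1 to C5 and valproic acid through 81.2 ± 12.6, 110.2 ± 18.8, 147 ± 19.8, 143 ± 52.0 and 175 ± 20.8 CPM. Their trends were called, at 1.42 ± 0.17 (adjusted p = 7.73e-06) and 0.97 ± 0.19 (adjusted p = 0.000793). The call in trichostatin A chose the gene and is not counted beside them. Apicidin started highest and had 159.7 ± 6.58, 213 ± 25.04, 223 ± 17.4, 206 ± 30.1 and 243 ± 18.4 CPM, with a C5 change of 0.62 ± 0.15 (adjusted p = 0.00308). Its trend, 0.51 (adjusted p = 0.00538), stayed under the fold of 1.5.

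In tacedinaline KLRC2 had its highest mean at C3 and its lowest at C5, with 117 ± 13.5, 161 ± 27.1, 168 ± 13.8, 83.4 ± 6.62 and 57.9 ± 18.8 CPM. In mocetinostat the means were 148 ± 30.1, 122 ± 58.2, 159.5 ± 34.2, 94.1 ± 4.60 and 49.4 ± 5.90 CPM, and the C5 libraries were the lowest of the gene but for 1 of tacedinaline. Vorinostat reached its highest mean at C4, with 100.0 ± 11.2, 116 ± 14.3, 151 ± 25.3, 185 ± 15.3 and 77.8 ± 6.30 CPM. Scriptaid gave 98.5 ± 13.5, 116 ± 15.2, 152 ± 19.7, 282 ± 224 and 78.6 ± 7.69 CPM, but its C4 libraries had 134, 173 and 541 CPM in batches 1, 2 and 3. The C4 change was called at 1.57 ± 0.38 (adjusted p = 0.0222), with log2 differences from C1 of 0.68, 0.75 and 2.3 in batches 1, 2 and 3. Without the batch 3 library it was 0.63 ± 0.20 (adjusted p = 0.0494). That library correlated least with its group of all 118, and its lymphoid marker sum without NCAM1 was 16.0 CPM, against 0.865 and 0.600 CPM in its mates.

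By trend KLRC2 was called up in 2 of 7 chemicals and down in 1, tacedinaline, at -0.96 ± 0.31 (adjusted p = 0.0128). The shares of all features for trends in either direction are those given above. Without replicate 2 it was called up in 1, and without replicate 3 down in 0. With RLE scaling, no filter on low counts, DESeq2 or the slope on concentration rank it was called down in 2, mocetinostat being the added chemical. At C5 against C1 it was called up in 3 of 7 (apicidin, panobinostat and valproic acid) and down in 2, at -1.5 ± 0.28 (adjusted p = 0.00078) in mocetinostat and -0.95 ± 0.19 (adjusted p = 7.56e-05) in tacedinaline. The rises at C5 were 1.27 ± 0.20 (adjusted p = 7.49e-05) in panobinostat and 1.12 ± 0.22 (adjusted p = 0.00177) in valproic acid, and without replicate 1 the rise was called in 1 of 7. From C3 to C5 it was called down in 3 of 7, the chemicals in which SLC16A12 was called down, at -1.63 ± 0.29 (adjusted p = 0.00218) in mocetinostat, -1.47 ± 0.19 (adjusted p = 7.22e-08) in tacedinaline and -0.89 ± 0.18 (adjusted p = 0.000112) in vorinostat. At C3 against C1 all 7 changes were above 0, and that of vorinostat was called, at 0.63 ± 0.17 (adjusted p = 0.0151). With the batch as a block, without the filter or by DESeq2 valproic acid was also called at C3, with an adjusted p of 0.0259 under the block, and without the scriptaid C4 library of batch 3 scriptaid was (0.0422). Without replicate 1, 2 or 3 the C3 count was 0, 0 and 4.

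At C4 KLRC2 was called up in 4 of 7 chemicals, its highest count at any level, with log2 changes of 1.21 ± 0.20 (adjusted p = 0.00131) in panobinostat, 1.57 ± 0.38 (adjusted p = 0.0222) in scriptaid, 0.83 ± 0.22 (adjusted p = 0.0173) in valproic acid and 0.94 ± 0.17 (adjusted p = 3.03e-05) in vorinostat. The scriptaid value includes the library at 541 CPM. The other 3 were 0.38 (adjusted p = 0.0697) in apicidin, -0.45 (adjusted p = 0.051) in tacedinaline and -0.60 (adjusted p = 0.138) in mocetinostat. Upward calls at C4 made up 11.1% in apicidin, 12.1% in mocetinostat, 1.16% in panobinostat, 2.20% in scriptaid, 16.3% in tacedinaline, 5.51% in valproic acid and 15.6% in vorinostat of all features. Without replicate 1, 2 or 3 the C4 count was 1, 2 and 3. In trichostatin A the C5 change was 1.02 ± 0.20, or 1.08 without the C1 library of batch 3.

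The C5 change of KLRC2 differed among the 7 chemicals (edgeR F test, adjusted p = 3.4e-12). By mean at C5 the order was panobinostat, apicidin, valproic acid, trichostatin A, scriptaid, vorinostat, tacedinaline and mocetinostat. The libraries of apicidin and valproic acid did not overlap, nor did those of trichostatin A and scriptaid, while the other 5 pairs of neighbours did. The place of trichostatin A in this order is a description only, since its rise had selected the gene and the doses were not matched.

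Other genes of natural killer cells had unequal levels in these libraries. PTPRC, the pan-leukocyte CD45 gene, had 0 counts in all 118 libraries, which allows up to 3 counts in each, and CD2, CD3E and NKG7 were at 0 in 117, 116 and 115 of them. NCAM1, also a neural adhesion gene, carried the lymphoid sum, at a mean of 103 CPM, and all 7 lymphoid trend calls of 13 tests were its own. Without NCAM1, the sum of the lymphoid markers had a median of 4.30 CPM over the C1 libraries and 5.96 CPM over the C5 libraries. Among the partners of KLRC2, the CD94 gene KLRD1 had 2.78 CPM in its highest feature, KLRC3 had 12.8 CPM and KLRC1 0.0131 CPM. KLRK1, the NKG2D receptor gene, had 4.98 CPM and was at 0 in 5 of 118 libraries, and its adaptor gene HCST had 2.12 CPM and was at 0 in 10. TYROBP, a further adaptor gene, had 0.026 CPM and was at 0 in 112. KLRG1, an inhibitory receptor gene, had 1.42 CPM and was at 0 in 19. KLRC2, KLRC1 and KLRC3 are close copies of each other, so which of them the KLRC2 probe read is uncertain.

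**Figure D4:**
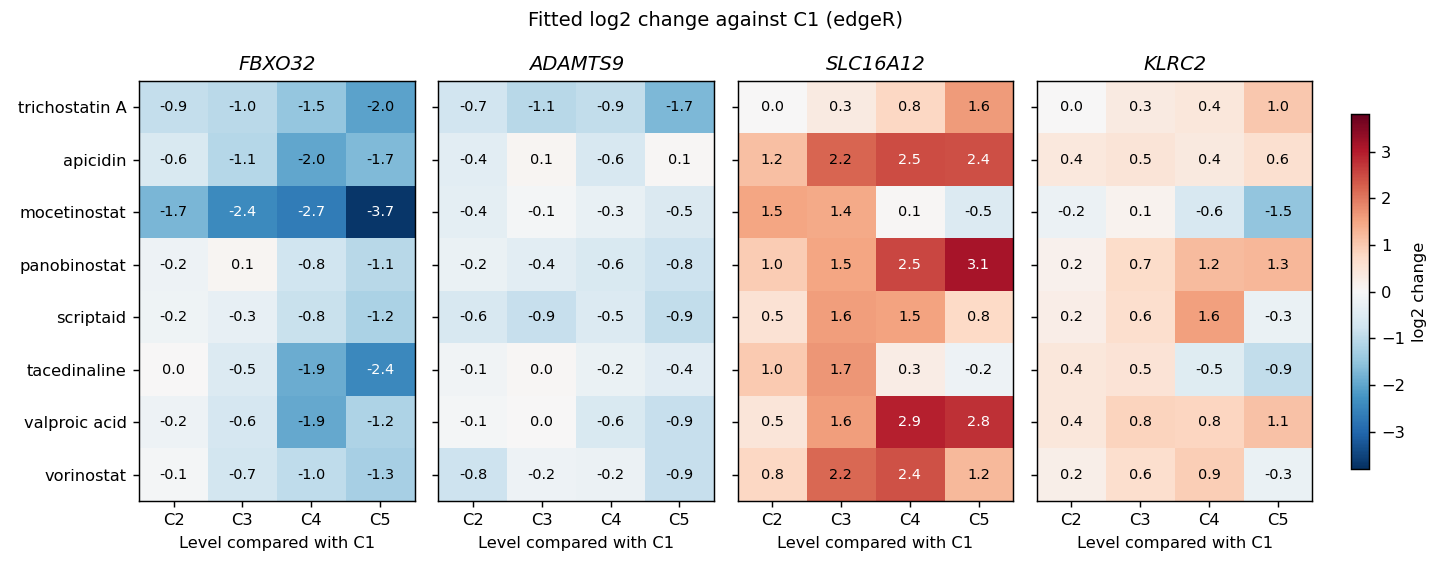
Fitted log2 change of each gene at C2, C3, C4 and C5 against C1 (edgeR) in the 8 chemicals, red for higher and blue for lower, with the value to 1 decimal in each cell. FBXO32 was negative at C5 throughout, and SLC16A12 was positive at C3 throughout, with the smallest value, 0.33, in trichostatin A.

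The genes around each of the 4 were counted by trend over the 7 chemicals, where 1 test is 1 feature in 1 chemical. Of 88739 tests of all features, 14.6% were called up and 14.5% down, with median log2 trends per chemical from -0.0038 to 0.10. Features were not independent, and these counts stand as descriptions.

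Core SCF subunits and other ubiquitin ligases of muscle atrophy, the partners of FBXO32, were called up in 10 and down in 16 of 93 tests (medians -0.03 to 0.30). NEDD4, a HECT ubiquitin ligase, was the one with the largest fall, -1.61 ± 0.31 (adjusted p = 0.00023) in vorinostat, and FBXO25, the F-box gene closest to FBXO32, rose in 3 of 7, with a largest trend of 1.47 ± 0.32 (adjusted p = 0.00141) in mocetinostat. TRIM63, the MuRF1 ligase usually named beside atrogin-1, was at 0 in 99 of 118 libraries. FOXO factors and their targets were split, with 43 calls up and 45 down in 143 tests (medians -0.97 to 0.28). FOXO6 and TXNIP, an inhibitor of thioredoxin, rose in 7 of 7 chemicals each, with largest trends of 4.44 ± 0.31 (adjusted p = 2.37e-11) in tacedinaline and 2.45 ± 0.32 (adjusted p = 5.68e-07) in tacedinaline. G6PC, glucose-6-phosphatase, fell in 7 of 7, with a largest trend of -6.92 ± 0.93 (adjusted p = 1.53e-05) in mocetinostat.

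Proteases of the ADAMTS family had 8 calls up and 13 down in 92 tests (medians -0.58 to 0.48), and ADAMTS9 itself is not in the list. ADAMTS20, a close relative of ADAMTS9, fell in 5 of 7, with a largest trend of -2.08 ± 0.38 (adjusted p = 0.000101) in vorinostat. ADAMTS3, a procollagen processing protease, rose in 3 of 7, with a largest trend of 1.51 ± 0.24 (adjusted p = 2.12e-05) in apicidin. Substrates, the inhibitor and the glycosylation genes of ADAMTS9 had 11 up and 12 down of 63 (medians -1.16 to 0.04). HAPLN3, a hyaluronan and proteoglycan link protein, rose in 5 of 7, with a largest trend of 2.38 ± 0.26 (adjusted p = 2.36e-07) in vorinostat. B3GLCT, which glucosylates thrombospondin repeats, fell in 5 of 7, with a largest trend of -1.69 ± 0.50 (adjusted p = 0.00694) in tacedinaline.

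Other SLC16 transporters and their chaperones were called up in 2 and down in 4 of 46 tests (medians -0.46 to 0.26). SLC16A13 fell in 4 of 7, with a largest trend of -2.06 ± 0.35 (adjusted p = 0.000175) in mocetinostat, and BSG, the chaperone basigin, rose in 2 of 7 (at most 0.93 ± 0.14, adjusted p = 6.27e-06, in tacedinaline). Genes of creatine synthesis and transport had 14 calls up and 11 down in 36 tests (medians 0.08 to 1.22). GATM, which makes the creatine precursor guanidinoacetate, fell in 7 of 7, with a largest trend of -5.11 ± 0.37 (adjusted p = 3.67e-11) in tacedinaline. The mitochondrial creatine kinases CKMT1A and CKMT1B rose in 7 of 7, with largest trends of 2.58 ± 0.38 (adjusted p = 1.03e-05) and 1.96 ± 0.43 (adjusted p = 0.000761), both in vorinostat, but they are near-identical copies whose probes may not tell them apart. Receptors, adaptors and the ligand around CD94 and NKG2 had 5 calls up and 1 down in 38 tests (medians -0.21 to 0.96). HLA-E, their ligand, rose in 1 of 7, by 1.14 ± 0.27 (adjusted p = 0.00447) in panobinostat.

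**Figure D5:**
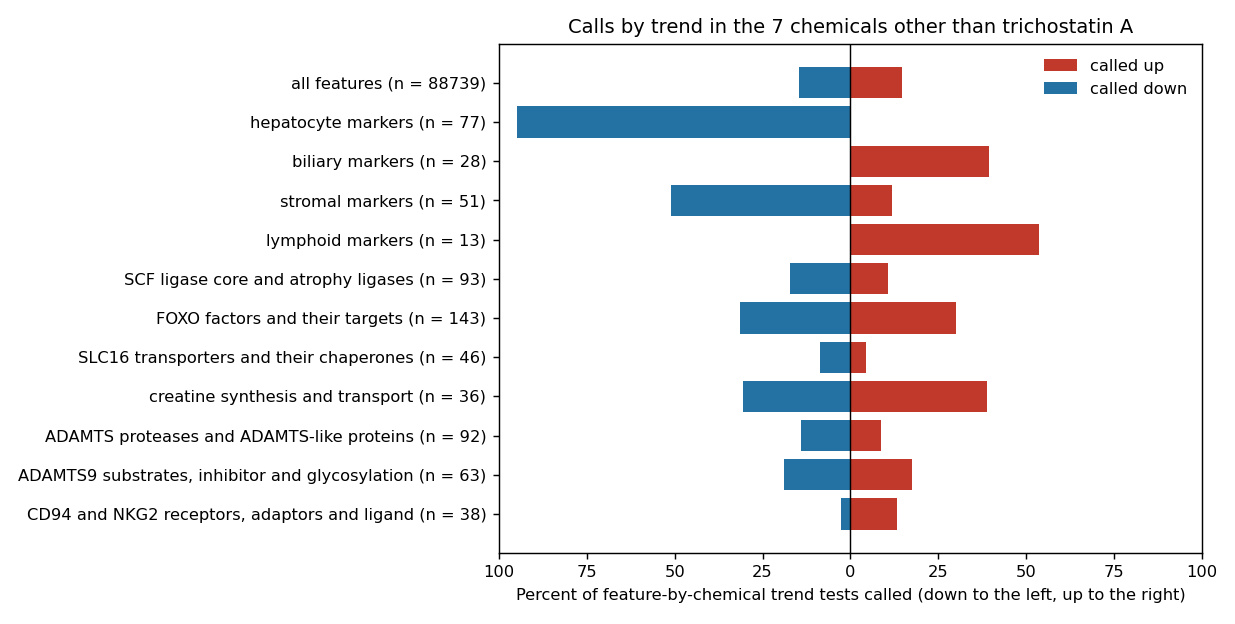
Percent of trend tests called up (red, right) and down (blue, left) in the 7 chemicals other than trichostatin A, for all features and for 11 gene lists, with the number of feature-by-chemical tests in parentheses. Hepatocyte markers were called down in 94.8% of tests, against 14.5% of all features.

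In trichostatin A, no feature of these lists other than DCN among the stromal markers was called by trend.

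Likeness of concentration patterns was measured as Pearson's r over the 35 group means of the 7 chemicals, among 15632 features. The groups share batches, possibly plates, and the common response, so these values are descriptions without a p-value. FBXO32 was most like GSTA2, a glutathione transferase of the liver (0.945), PNRC1, a nuclear receptor coactivator (0.924), and TRIB3, a stress-induced pseudokinase (0.924). SLC16A12 was most like PRCP, prolylcarboxypeptidase (0.924), TMEM100 (0.900) and MRO (0.886). For KLRC2 they were SLC7A7, a cationic amino acid transporter (0.922), NUDT9 (0.880) and MALRD1 (0.878). ADAMTS9 had weaker matches, PNRC1 (0.747), CD109 (0.741) and ST18 (0.732), the last at a mean of 0.884 CPM.

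Among the 4 genes, r over the same 35 means was 0.757 for SLC16A12 and KLRC2 and 0.607 for FBXO32 and ADAMTS9. FBXO32 and SLC16A12 gave -0.350, SLC16A12 and ADAMTS9 -0.410, FBXO32 and KLRC2 0.194, and ADAMTS9 and KLRC2 0.0433. The 2 genes that rose in trichostatin A thus ran together across the other chemicals as well, as a description of these group means.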

How the data were processed

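For each probe row the authors deposited unnormalized whole-number read counts of 118 TempO-Seq libraries. The submitters' processing notes name bcl2fastq 2.20.422, fastp 0.23.2, STAR 2.7.10b and DESeq2 1.38.0. The genome build is not given in the sources used here. Of 22069 rows, 1 (a SEC13 probe) was incomplete and left out. The paper supplied with these data describes another HepaRG experiment and contributed style only.

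Groups came from the labels, and replicate numbers are HepaRG batches. Each chemical was fitted alone with edgeR 4.0.16 (R 4.3.3, filterByExpr, TMM scaling, quasi-likelihood F test) on the deposited counts, with C1 as reference and no batch term. CPM were scaled over all libraries by TMM. Alternatives were RLE scaling, no filter, DESeq2 1.42.0, a batch block, a rank slope and left-out libraries. The scripts were tested on simulated data. The batches pair the samples by label. Deviations from group means correlated with a median r of 0.0230 in 232 same-batch pairs and -0.0109 in 464 others.

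The members, gene lists and tests were chosen with earlier results of these data known. Named genes were the 4 members, the 3 features most like each, called features with large trends from each list, markers, and the features next to the selection threshold. Reads carried no molecular identifiers, so they do not count molecules, and floors cover counting error only. Whether batches were separate cultures beyond their label is not stated, so p-values measure the spread between these libraries.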

Additional observations from a re-analysis of the deposited data

Results flagged for a closer look

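These tested differences between chemicals deserve a closer look. The C5 against C1 change differed among the 7 chemicals other than trichostatin A for SLC16A12 (edgeR F test with Benjamini-Hochberg adjustment, adjusted p = 5.03e-21), with log2 changes from -0.51 in mocetinostat to 3.13 in panobinostat. For KLRC2 it differed (adjusted p = 3.4e-12) from -1.5 in mocetinostat to 1.27 in panobinostat. For FBXO32 it differed (adjusted p = 0.000158) in size but not in sign, from -3.71 in mocetinostat to -1.06 in panobinostat. Doses were not matched. The pair at the ends of these ranges shared the title letter H. Scriptaid, tacedinaline and vorinostat had E, and in each of them SLC16A12 and KLRC2 had lower means at C5 than at C3. Of the chemicals with H, only mocetinostat had this in both genes. Letter and chemical cannot be told apart. Single outlying libraries were not tested, since each group held at most 3.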

How the results depend on the processing

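FBXO32 was called down in 5 to 7 of 7 chemicals under every alternative run, both at C5 and by trend. Without replicate 1, 2 or 3, ADAMTS9 calls ranged from 0 to 1 of 7 by trend and 0 to 2 at C5, SLC16A12 rises at C3 from 4 (without replicate 2) to 6 and falls from C3 to C5 from 1 to 4, KLRC2 rises by trend from 1 to 2 and at C5 from 1 to 3, and KLRC2 falls by trend from 0 to 1. The KLRC2 falls by trend were 2 with RLE in place of TMM, with no filter on low counts, by DESeq2 and with the slope on concentration rank. Without the scriptaid C4 library of batch 3, left out after its values had been seen, the KLRC2 falls from C3 to C5 were 4, the ADAMTS9 falls by trend 3, the SLC16A12 falls from C3 to C5 4 and its rises at C5 5. The KLRC2 rises at C3 were 2 with no filter on low counts, by DESeq2, with the replicate block and without the scriptaid C4 library of batch 3, and ranged from 0 to 4 without replicate 1, 2 or 3. Those at C4 then ranged from 1 to 3, and were 4 without the scriptaid or the mocetinostat library. The SLC16A12 trend in trichostatin A ranged from 1.44 (without replicate 1) to 1.90 (without replicate 2). Groups then held 2 libraries, or 1 in panobinostat C3 and trichostatin A C4, whose lone library is assumed to vary like the other groups of its fit.

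The trichostatin A selection was the least stable: 8 features in all, 4 with the replicate block, 56 by DESeq2, 80 without the C1 library of batch 3, 20 without replicate 3 and 0 without replicate 1 or 2. The members among them were 4, 2, 4, 4, 3, 0 and 0. With the replicate block the C5 counts of the 7 chemicals kept their values (7 for FBXO32, 3 for ADAMTS9, which lost scriptaid and gained vorinostat). Single values by chemical (112 results, 844 values) kept direction and call in 744, lost the call in 47, gained it in 33 and changed sign in 20. The sign changes were all between uncalled values, 11 results with a main value of at most 0.47 in size. The values were -0.034 for ADAMTS9 in apicidin, C5 against C1, -0.0403 for ADAMTS9 in apicidin, C3 against C1, 0.00632 for ADAMTS9 in apicidin, C5 against C3, -0.00162 for ADAMTS9 in valproic acid, C3 against C1 with the replicate block, 8.75e-05 for ADAMTS9 in apicidin, C5 against C3 with RLE, 0.000179 for ADAMTS9 in apicidin, C5 against C3 by DESeq2. With 1 replicate left out the ranges were -0.43 to 0.18 for ADAMTS9 in apicidin, trend, -0.33 to 0.21 for ADAMTS9 in apicidin, C5 against C1, -0.30 to 0.26 for ADAMTS9 in apicidin, C3 against C1, -0.0507 to 0.0519 for ADAMTS9 in apicidin, C5 against C3, -0.25 to 0.0477 for ADAMTS9 in mocetinostat, C3 against C1, -0.32 to 0.0972 for ADAMTS9 in scriptaid, C5 against C3, -0.13 to 0.13 for ADAMTS9 in tacedinaline, C3 against C1, -0.80 to 0.0363 for ADAMTS9 in tacedinaline, C5 against C3, -0.11 to 0.20 for ADAMTS9 in valproic acid, C3 against C1, -0.52 to 0.00173 for ADAMTS9 in vorinostat, C3 against C1, -0.11 to 0.34 for KLRC2 in mocetinostat, C3 against C1. The cause was not tested.

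Shares of all features called moved by over 1.5 times under several settings. With a changed setting this was so downward from C3 to C5 in apicidin (225 calls, 369 without the filter, 354 by DESeq2), upward at C3 in scriptaid (59, 122 and 157) and in valproic acid (38, 85 and 82), and by trend in scriptaid with the rank slope (790 down and 873 up, 1264 and 1483). Upward calls at C4 moved in panobinostat (152, 262 without the filter, 246 by DESeq2) and scriptaid (282, 582 and 652). Without the scriptaid C4 library of batch 3, scriptaid calls rose to 1445 down and 1547 up by trend, from 59 to 290 upward at C3, from 282 to 454 at C4 and from 1633 to 2460 at C5. Without the mocetinostat C2 library of batch 3, downward calls from C3 to C5 in mocetinostat rose from 723 to 1099. Leaving out replicate 1, 2 or 3 moved 29, 29 and 20 of 51 such counts. Depth limits the lowest genes.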
